A study of Mus musculus with 15 samples.

Results

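Aldehyde dehydrogenases and drug efflux transporters are 2 groups of genes whose products change or remove reactive and foreign molecules. The 10 genes described here are the retinaldehyde dehydrogenases Aldh1a1, Aldh1a2 and Aldh1a3, the aldehyde dehydrogenases Aldh2 and Aldh3a1, and the efflux transporters Abcb1a, Abcb1b, Abcc1, Abcc4 and Abcg2. They were taken by gene name from the 55359 genes of the expression matrix, and each name matched a single gene.

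RNA was sequenced from 15 mouse samples in 5 groups of 3. QKO mice carry floxed alleles of tumor suppressors, among them Rb1 and Trp53, and a null Rbl1, and a further deleted gene is not reported here. 46LCNEC_cell is an adherent line from a lung tumor raised by intratracheal adenovirus with Cre under the CMV promoter, and 57SCLC_cell is a line growing as floating aggregates from a tumor raised with Cre under the keratin K5 promoter. 46LCNEC_allo and 57SCLC_allo are tumors that grew after these cells were injected under the skin of immunocompetent QKO mice, and Lung is normal lung of littermates of such recipients, whose floxed alleles were not said to be recombined. Each line stands for a single tumor, and cultures of the same line are not separate tumors. Ages were not given in the sources used here. P-values measure the spread between these samples, since for the cultures nothing shows more than separate dishes or flasks.

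Values are normalized counts, which are reads per gene divided by a size factor for each sample. Between 9480244 and 44876572 reads were counted per sample, with the lowest total in tumor 275 of 57SCLC_allo. A gene with at most 3 reads in a library was taken as at the floor of detection, which covers counting error only. Rb1, Rbl1 and Trp53 were read above the floor in every sample, and a count over a whole gene does not show the loss of some exons. All 10 neuroendocrine markers, among them Chga and Syp, were above the floor in every 57SCLC sample. Only 4 of 10 were above it in all 3 samples of 46LCNEC_cell, and 4 in those of 46LCNEC_allo. Ncam1 was high in 46LCNEC_cell, at 28614 to 31510. It was lower in 46LCNEC_allo, where the sum of all 10 markers was 3128 to 7477, against 29369 to 32366 in 46LCNEC_cell. Chga, which encodes chromogranin A, was at 1.05 to 18.5 over the 6 samples of 46LCNEC. Culture C of 57SCLC_cell stood apart from cultures A and B. Its counts differed from theirs with a chi-square per degree of freedom of 127 and 144, against 2.80 between A and B. The same measure was 92.6 to 133 between tumors of 46LCNEC_allo and 17.8 to 43.8 between those of 57SCLC_allo. It was 7.28 to 22.8 between cultures of 46LCNEC and 27.2 to 28.4 between lungs.

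Aldehyde dehydrogenases oxidize aldehydes to acids with NAD or NADP. Enzymes of the ALDH1A group turn retinaldehyde into retinoic acid, a ligand of nuclear receptors, their activity is used to mark stem-like cells, and some of these enzymes are known to inactivate cyclophosphamide. ABC transporters use ATP to pump drugs, lipids and metabolites out of cells. Those studied here are known for multidrug resistance in tumors and for guarding the endothelium of the brain and the surfaces of lung and gut.

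Genes were called where limma gave an adjusted p (Benjamini-Hochberg, over all genes tested) no higher than 0.01 together with a log2 fold change of 1 or more in either direction. Against Lung, 46LCNEC_cell had 3 of the 10 genes called higher and 5 lower, where 20.6% and 35.0% of all genes tested were called. 46LCNEC_allo had 2 called higher and 4 lower, with a background of 13.4% and 22.1%. 57SCLC_cell had 3 higher and 6 lower, where the background was 21.1% and 32.7%. 57SCLC_allo had 2 higher and 6 lower, against 18.9% and 26.9% of all genes. With 10 genes each call is 10% of the set, so the shares called higher lay within about 1 gene of the background, and those called lower in 57SCLC lay about 3 genes above it.

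Between the lines, 3 of the 10 genes were called higher in 57SCLC_cell than in 46LCNEC_cell and 6 lower, where 23.9% and 22.2% of all genes were called. In the allografts, 2 were higher in 57SCLC_allo and 5 lower, against 16.1% and 14.2%. Growth as an allograft was compared with culture within each line. In 46LCNEC, of 9 genes tested none was called higher in the allografts and 1 lower, where 14.4% and 8.45% of all genes were called. In 57SCLC, of 9 tested 3 were called higher and 3 lower, where 14.4% and 2.29% of all genes were called. The difference between the lines changed with the growth setting for 5 genes, of which 4 moved up and 1 down, against 10.8% and 6.78% of all genes. The median log2 fold change over the 10 genes was -2.51 for 57SCLC_cell against 46LCNEC_cell, where the median over all genes was 0.00.

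**Figure D1:**
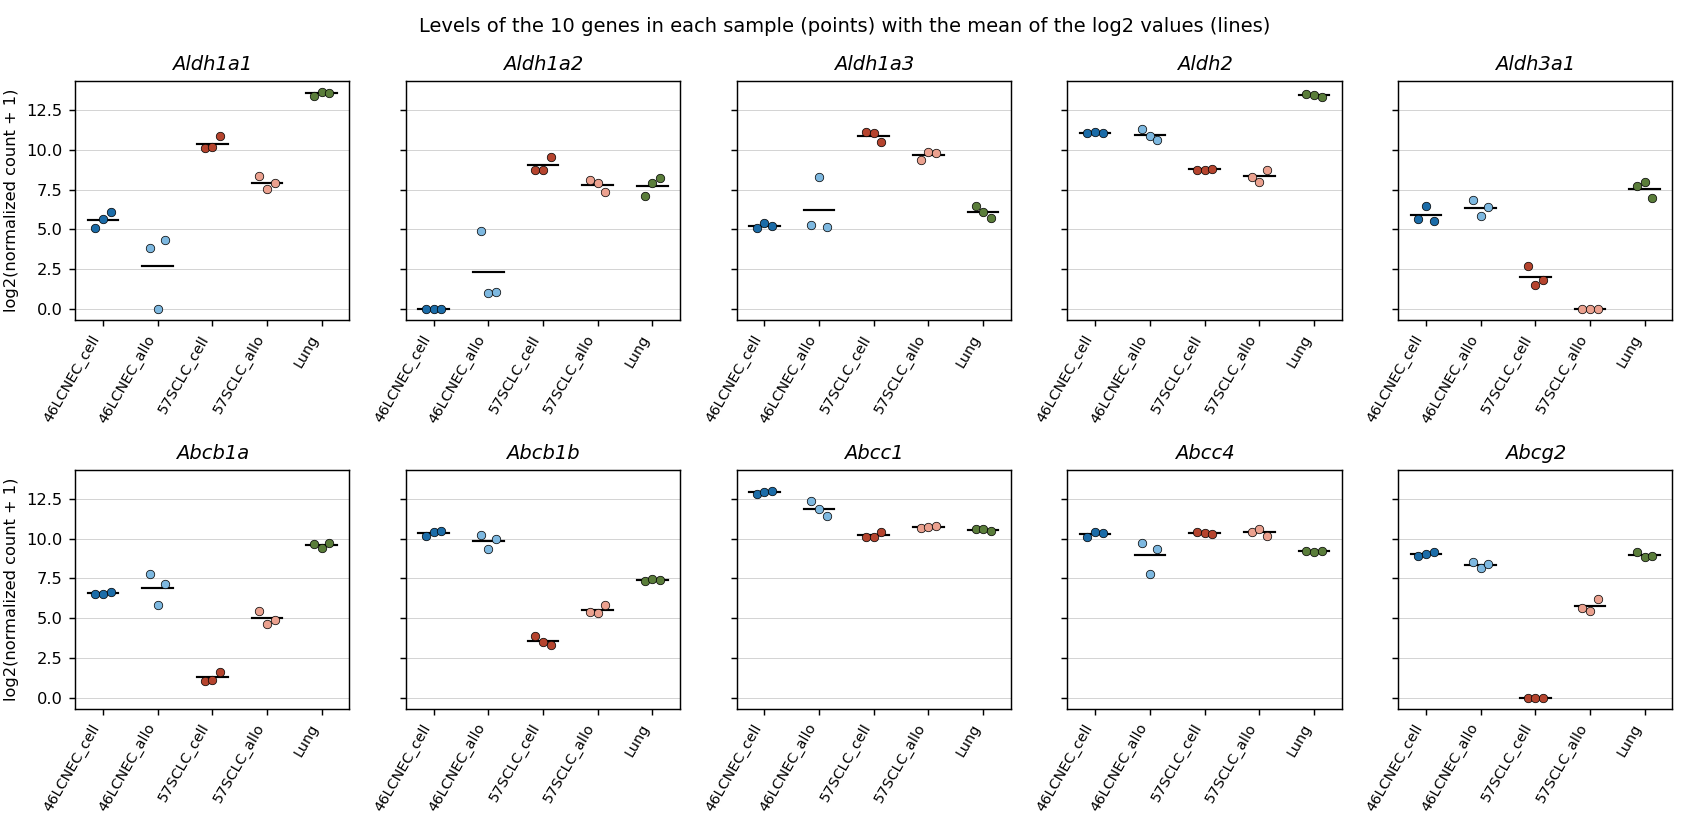
Level of each gene in the 15 samples, as log2(normalized count + 1) on the vertical axis and the 5 groups on the horizontal axis, with a point for each sample and a line at the mean of the log2 values. The ALDH1A genes lie higher in 57SCLC than in 46LCNEC cultures, Abcb1b and Abcc1 lie lower, and Abcg2 is at 0 in the 3 cultures of 57SCLC.

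Aldh1a1 (ENSMUSG00000053279, GRCm39 chr19:20469539-20622825, plus strand) encodes a cytosolic retinaldehyde dehydrogenase. It had 10839, 12741 and 12291 normalized counts in the lungs CT3, CT4 and CT5. In 57SCLC_cell it had 1116, 1175 and 1856 in cultures A, B and C, and in 57SCLC_allo it had 321, 183 and 238 in tumors 275, 316 and 317. In 46LCNEC_cell it had 33.8, 48.6 and 67.7, and in 46LCNEC_allo 13.2, 0 and 18.8 in tumors 312, 319 and 321. The 5 groups did not overlap, and every tumor sample lay below every lung. Against Lung, Aldh1a1 fell by 3.15 ± 0.19 (SE) on the log2 scale in 57SCLC_cell, and its log2 fold change was -7.92 ± 0.21 in 46LCNEC_cell (limma adjusted p = 2.04e-06 and 2.65e-09). It was 27.6-fold higher in 57SCLC_cell than in 46LCNEC_cell and fell by 2.48 ± 0.25 from culture to allograft in 57SCLC, a call lost with all 15 samples in 1 model, at an adjusted p of 0.0243 (limma). The call for the allografts, 23.1-fold higher in 57SCLC_allo than in 46LCNEC_allo with an adjusted p of 0.00668 (limma), was lost when any 1 tumor of 57SCLC_allo or tumor 312 was left out, at an adjusted p from 0.0118 to 0.031.

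Aldh1a1 has a close copy next to it on chromosome 19, Aldh1a7 (ENSMUSG00000024747, chr19:20667107-20704932, minus strand), so it matters whether reads tell them apart. Their coding sequences were 92.2% identical over 1500 aligned bases, and of 6103 windows of 100 bases in the Aldh1a1 transcript, 1 was found unchanged in that of Aldh1a7. One coding exon of each gene is shown from the GRCm39 genome because it has about the identity of the whole coding sequence. It is exon 7 of both genes, with 9 of 114 bases in capitals where the genes differ, at chr19:20602076-20602189 for Aldh1a1 and chr19:20692045-20692158 for Aldh1a7.
Aldh1a1: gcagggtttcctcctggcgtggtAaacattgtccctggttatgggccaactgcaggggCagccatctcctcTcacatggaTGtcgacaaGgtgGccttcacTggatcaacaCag
Aldh1a7: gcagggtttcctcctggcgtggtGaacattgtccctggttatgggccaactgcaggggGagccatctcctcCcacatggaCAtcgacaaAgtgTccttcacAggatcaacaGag
The capitals are spread over the exon, so that few stretches of 100 bases lack one.

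Aldh1a7 was far higher than Aldh1a1 in 57SCLC. It had 6375, 6537 and 8018 normalized counts in cultures A, B and C and 2709.8, 2701 and 2730.3 in tumors 275, 316 and 317. In the lungs it had 972, 1306 and 1246, and in 46LCNEC it was at most 9.38 in any sample. Per kb of transcript, Aldh1a1 made up 89.3% to 90.5% of the sum of both genes in Lung, but 12.98% to 16.5% in 57SCLC_cell and 5.44% to 9.16% in 57SCLC_allo. The order of the genes was therefore turned between Lung and 57SCLC. Against Lung, Aldh1a7 rose in 57SCLC_cell and 57SCLC_allo, whereas Aldh1a1 fell.

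**Figure D2:**
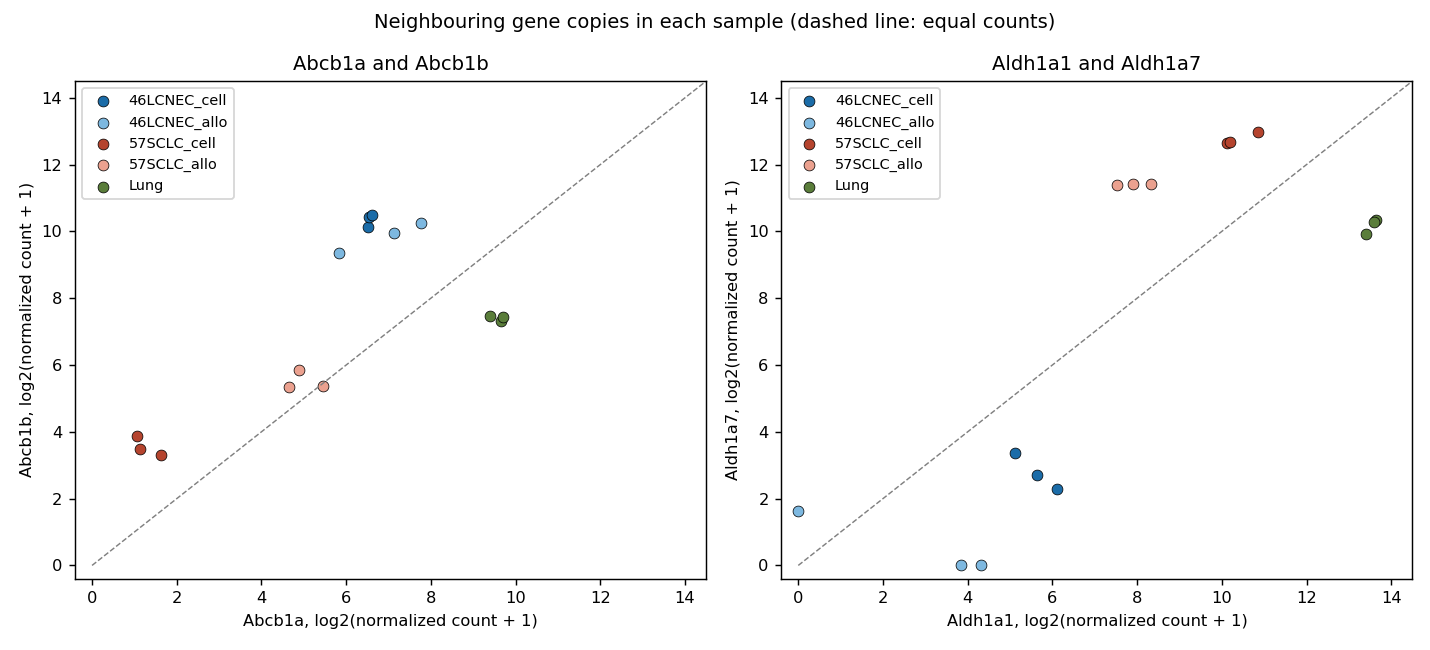
Neighboring gene copies in each of the 15 samples, both axes as log2(normalized count + 1), with a dashed line where the counts are equal. Abcb1a exceeds Abcb1b in the 3 lungs and lies under it in 46LCNEC, and Aldh1a1 exceeds Aldh1a7 in the 3 lungs and lies under it in the 6 samples of 57SCLC.

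Aldh1a2 (ENSMUSG00000013584, chr9:71122630-71203527, plus strand) makes retinoic acid in the embryo and in mesothelium. It had 429.9, 428 and 755 normalized counts in cultures A, B and C of 57SCLC_cell and 278, 236 and 160.004 in tumors 275, 316 and 317. The lungs had 139, 241 and 297. It had no read in the 3 cultures of 46LCNEC_cell, and 22, 1 and 1 reads in tumors 312, 319 and 321. The gene thus was present in every 57SCLC sample, and in 46LCNEC it was above the floor in tumor 312 only. It was at least 162-fold higher in 57SCLC_cell than in 46LCNEC_cell, and at least 68.2-fold lower in 46LCNEC_cell than in Lung, both against a floor of 3 reads per library. In 57SCLC_cell it was 2.38-fold higher than in Lung, with a log2 fold change of 1.26 ± 0.33 (limma adjusted p = 0.00818). Without culture C this change was 0.99 with an adjusted p of 0.0198 (limma), and the call was lost too without culture A or B, CT3 or CT4, at adjusted p from 0.0116 to 0.0263. It was also lost with all 15 samples in 1 model (0.147) and with a pseudocount of 0.1 (0.0121). From culture to allograft in 57SCLC the log2 change was -1.24 ± 0.27 (limma adjusted p = 0.0081). It was -0.97 without culture C, and leaving out any of the 6 samples or fitting all 15 samples (0.239) ended the call. In 46LCNEC_allo the gene was 21.7-fold lower than in Lung and 21.5-fold lower than in 57SCLC_allo (limma adjusted p = 0.00464 and 0.00441), calls that edgeR did not make (adjusted p = 0.0115 and 0.0119) and that 5 of the 6 samples ended when left out. 57SCLC_allo and Lung overlapped, and the interval of their difference was -0.72 to 0.77.

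Aldh1a3 (ENSMUSG00000015134, chr7:66040638-66077850, minus strand) is the retinaldehyde dehydrogenase most often tied to aldehyde dehydrogenase activity in tumors. It had 2181, 2139 and 1415 normalized counts in cultures A, B and C of 57SCLC_cell and 661, 933 and 898 in tumors 275, 316 and 317. The lungs had 88.9, 66.8 and 52.7, and cultures of 46LCNEC had 32.8, 40.8 and 36.9. In 46LCNEC_allo, tumor 319 had 317, whereas tumors 312 and 321 had 37.1 and 34.3. All 57SCLC samples thus lay above all others. Aldh1a3 rose 27.5-fold in 57SCLC_cell and 11.95-fold in 57SCLC_allo against Lung (limma adjusted p = 6.97e-07 and 3.94e-06), and it was 51.9-fold higher in 57SCLC_cell than in 46LCNEC_cell. From culture to allograft in 57SCLC it was 2.30-fold lower (limma adjusted p = 0.00175), a call lost with all 15 samples in 1 model (0.148). The allografts differed by 3.45 ± 0.83 on the log2 scale with an adjusted p of 0.0112 (limma), which was not called. Without tumor 319 the difference was 4.49 and the adjusted p 5.98e-05.

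Culture C of 57SCLC_cell differed from the others in these genes. Against the mean of cultures A and B, culture C had 1.62 times the normalized count of Aldh1a1, 1.76 times that of Aldh1a2 and 0.655 times that of Aldh1a3. Of the retinoid genes, some also differed there. Dhrs3, a reductase of retinaldehyde, had 489 against 69.3 and 73.0, the receptor Rarb had 1220 against 447 and 432, and Cyp26b1, which breaks down retinoic acid, had 98.0 against 9.82 and 18.7. Crabp2, a binding protein of retinoic acid, had 40.6 against 64.9 and 40.4. These examples were picked with their values known, and the values of a single culture were not tested. Without culture C, the log2 fold change of Aldh1a1 was -3.38 against Lung and 4.55 against 46LCNEC_cell, and that of Aldh1a3 was 4.97 and 5.84, all still called. Without it, 8 of the 10 genes were called in 57SCLC_cell against Lung, 9 against 46LCNEC_cell and 5 in 57SCLC_allo against the other cultures. Over all genes, those fits called 3853 higher and 6099 lower of 18467, 4039 and 3873 of 16920, and 2551 and 382 of 17078.

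Aldh2 (ENSMUSG00000029455, chr5:121704090-121732089, minus strand) encodes the mitochondrial enzyme that clears acetaldehyde. It had 11561, 11338 and 10299 normalized counts in the lungs, 2086, 2240 and 2163 in the cultures of 46LCNEC, and 2519, 1831 and 1602 in tumors 312, 319 and 321. In 57SCLC it had 428, 431 and 452 in the cultures and 311, 252 and 420 in tumors 275, 316 and 317. The lungs were highest and 57SCLC lowest, and the groups of a line overlapped in 46LCNEC only. Aldh2 fell 5.12-fold in 46LCNEC_cell and 25.3-fold in 57SCLC_cell against Lung (limma adjusted p = 5.34e-09 and 7.2e-09). It was 4.95-fold lower in 57SCLC_cell than in 46LCNEC_cell and 6.06-fold lower in 57SCLC_allo than in 46LCNEC_allo. From culture to allograft the intervals of the log2 change were -0.54 to 0.24 in 46LCNEC and -0.87 to -0.03 in 57SCLC, and neither was called.

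Aldh3a1 (ENSMUSG00000019102, chr11:61098363-61109247, plus strand) encodes a cytosolic enzyme for medium-chain and aromatic aldehydes that is known from cornea and airway. It had 212, 253 and 123 normalized counts in the lungs, 49.7, 88.3 and 44.6 in cultures of 46LCNEC, and 115, 55.8 and 84.1 in tumors 312, 319 and 321. Cultures of 57SCLC had 10, 3 and 5 reads, and tumors 275, 316 and 317 had none. The levels thus ran opposite to those of the ALDH1A genes between the lines. Aldh3a1 was 18.5-fold lower in 57SCLC_cell than in 46LCNEC_cell (limma adjusted p = 3.9e-05), and at least 11.8-fold lower in 57SCLC_allo than in 46LCNEC_allo. Against Lung it was 3.22-fold lower in 46LCNEC_cell (limma adjusted p = 0.00125, and 0.0104 without CT3, where the call was lost) and at least 27.3-fold lower in 57SCLC_allo. In 46LCNEC_allo the change against Lung was -1.19 ± 0.38, which was not called. The step from culture to allograft in 57SCLC was not tested, as the gene did not reach 10 normalized counts in 3 of these samples.

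Abcb1a and Abcb1b are the mouse genes for P-glycoprotein, the pump best known for multidrug resistance, which people have as a single gene. They lie side by side on chromosome 5, Abcb1a (ENSMUSG00000040584) at chr5:8710022-8798575 and Abcb1b (ENSMUSG00000028970) at chr5:8847994-8916389, both on the plus strand. Their coding sequences were 88.5% identical over 3814 aligned bases, and 7.41% of 4953 windows of 100 bases in Abcb1a were found unchanged in Abcb1b. Exon 24 of each gene is shown to let the copies be compared, at chr5:8787615-8787771 for Abcb1a and chr5:8901457-8901613 for Abcb1b. Capitals mark the 23 of 157 bases that differ.
Abcb1a: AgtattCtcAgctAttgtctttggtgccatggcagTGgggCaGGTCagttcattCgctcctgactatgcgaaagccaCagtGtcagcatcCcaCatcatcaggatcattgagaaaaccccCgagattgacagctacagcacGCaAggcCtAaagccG
Abcb1b: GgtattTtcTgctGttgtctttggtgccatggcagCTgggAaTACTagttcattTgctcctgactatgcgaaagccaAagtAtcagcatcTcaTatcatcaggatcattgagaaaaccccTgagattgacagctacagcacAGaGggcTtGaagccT
Read pairs that lie wholly on shared sequence cannot be assigned to 1 copy, and how such reads were handled was not given in the sources used here. A read that reaches past a shared window, or the other read of its pair, can meet a base that differs.

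Abcb1a, the form known from endothelium and the gut, had 809.5, 669 and 825 normalized counts in the lungs CT3, CT4 and CT5. In 46LCNEC it had 91.0, 91.6 and 96.9 in the cultures and 217, 55.8 and 139 in tumors 312, 319 and 321. In 57SCLC it had 2 to 4 reads in each culture, and 43.1, 24.1 and 28.4 normalized counts in tumors 275, 316 and 317. Every tumor sample thus lay below every lung. Against Lung, Abcb1a fell 8.24-fold in 46LCNEC_cell and 5.59-fold in 46LCNEC_allo (limma adjusted p = 3.8e-08 and 0.00287). The second call was lost when any 1 lung was left out. The log2 change of that comparison was -2.67, and -2.63, -2.77 and -2.62 without CT3, CT4 and CT5. Abcb1a fell 24.1-fold in 57SCLC_allo, where 60 reads were counted in all. It rose in 57SCLC_allo against 57SCLC_cell, with a log2 fold change of 3.72 ± 0.36 (limma adjusted p = 8.58e-05).

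Abcb1b, the form known from adrenal and pregnant uterus, was higher in 46LCNEC than in Lung, whereas Abcb1a was lower, and both were lowest in 57SCLC. It had 1125, 1371 and 1437 normalized counts in the cultures of 46LCNEC and 1212, 652 and 982 in tumors 312, 319 and 321. The lungs had 159, 178 and 171. In 57SCLC it had 13.6, 10.3 and 8.86 in the cultures and 40.7, 39.6 and 56.7 in tumors 275, 316 and 317. All 46LCNEC samples lay above the lungs and all 57SCLC samples below them. Abcb1b rose 7.75-fold in 46LCNEC_cell and 5.61-fold in 46LCNEC_allo against Lung, and fell 15.5-fold and 3.70-fold in 57SCLC_cell and 57SCLC_allo. The lines differed by 6.79 ± 0.20 on the log2 scale in culture, which is 120.1-fold lower in 57SCLC_cell (limma adjusted p = 3.34e-08). In the allografts the gene was 20.8-fold lower in 57SCLC_allo. Per kb of transcript, Abcb1a made up 77.3% to 82.1% of the sum of both genes in Lung and 5.70% to 13.96% in the 6 samples of 46LCNEC. Abcb4, the neighboring gene for a phosphatidylcholine pump, had 9.36 to 27.2 in Lung and 46LCNEC_cell and 54.7 to 81.4 in 57SCLC_cell.

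Abcg2 (ENSMUSG00000029802, chr6:58561505-58672661, plus strand) encodes the breast cancer resistance protein, a pump that marks the side population of stem cells. It had 577, 460 and 481 normalized counts in the lungs, 482, 529 and 562 in the cultures of 46LCNEC, and 363, 288 and 333 in tumors 312, 319 and 321. In 57SCLC it had no read in the 3 cultures, and 47.9, 42.5 and 73.8 in tumors 275, 316 and 317. The cultures of 46LCNEC overlapped with the lungs, and all 57SCLC samples lay below both. Abcg2 was at least 289.8-fold lower in 57SCLC_cell than in 46LCNEC_cell and at least 279.65-fold lower than in Lung. It was 5.998-fold lower in 57SCLC_allo than in 46LCNEC_allo, with a log2 fold change of -2.60 ± 0.28 (limma adjusted p = 0.000315). Within 57SCLC it rose at least 30.2-fold from culture to allograft, where 20 to 65 reads were counted per tumor.

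Tumors under the skin hold cells of the host, and in such bulk samples fewer cells of a type and less RNA per cell cannot be told apart. Of 8 endothelial markers, Cdh5, Cldn5, Emcn and Egfl7 were at the floor in both lines in culture, Egfl7 at 0 in all 6 cultures and Emcn at 0 in 57SCLC. In 57SCLC_cell Kdr was at the floor too, and Vwf made up most of the sum of the list, which was 7142 to 7813. All 8 were above the floor in every allograft, with sums of 6072 to 10371 in 46LCNEC_allo and 10612 to 11168 in 57SCLC_allo, and of 107962 to 124422 in Lung. Cdh5, which holds endothelial cells together, had 0.603 to 1.56 normalized counts in 57SCLC_cell, 927 to 1204 in 57SCLC_allo and 24545 to 29535 in Lung. The sum of 7 fibroblast markers was 25.3 to 28.9 in 57SCLC_cell and 41554 to 63780 in 57SCLC_allo, and that of 6 macrophage markers was 247 to 278 and 3522 to 6490. Vwf, most of the endothelial sum in 57SCLC, did not rise, with 7072 to 7724 in 57SCLC_cell and 6628 to 8295 in 57SCLC_allo. Cdh5 and the fibroblast and macrophage sums rose with Abcb1a, Abcb1b and Abcg2 from culture to allograft in 57SCLC. Their part in that rise was not tested. In 46LCNEC, Cdh5 had 0.769 to 3.31 in culture and 2143 to 3735 in the allografts. The log2 changes of Abcb1a, Abcb1b and Abcg2 there were 0.35, -0.50 and -0.68, none called.

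Markers of lung epithelium were higher in Lung than in the other samples. The sum of 8 alveolar markers was 251480 to 336329 in Lung and at most 2978 in any tumor sample or culture, and that of 5 club cell markers was 200807 to 272021 against at most 52.6. Scgb1a1 and Cyp2f2, which define club cells, were at most 25.4 outside the lung. The sum of 5 ciliated cell markers was 17024 to 22854 in Lung and at most 1089 elsewhere. These levels moved with Aldh1a1, Aldh2 and Aldh3a1, all lower in the lines than in Lung, and their part was not tested. Mesothelial, fat and muscle markers were low by comparison, with sums of at most 4458, 2397 and 463 in any sample. The mesothelial sum was highest in 46LCNEC_cell, at 4100 to 4458, against 1366 to 2553 in Lung. Msln made up most of it there, at 4071 to 4425, and Upk3b and Lrrn4 were at the floor.

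Abcc1 (ENSMUSG00000023088, chr16:14179311-14293601, plus strand) encodes the multidrug resistance protein 1, an exporter of glutathione conjugates. It had 7235, 7772 and 8273 normalized counts in the cultures of 46LCNEC and 5343, 3645 and 2731 in tumors 312, 319 and 321. In 57SCLC it had 1076, 1095 and 1383 in the cultures and 1642, 1676 and 1792 in tumors 275, 316 and 317, and the lungs had 1553, 1579 and 1407. All 46LCNEC samples were highest, and neighbors in the order of groups did not overlap. Abcc1 rose 5.13-fold in 46LCNEC_cell and 2.58-fold in 46LCNEC_allo against Lung (limma adjusted p = 8.56e-09 and 0.00303). It was 6.55-fold lower in 57SCLC_cell than in 46LCNEC_cell and 2.29-fold lower in 57SCLC_allo than in 46LCNEC_allo. The allograft calls against Lung and between the lines were lost in 3 and 5 of the 6 fits that left out 1 sample.

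Abcc1 was the 1 gene of the 9 tested that was called between allograft and culture in 46LCNEC, where Aldh1a2 was not tested. Its log2 fold change was -1.04 ± 0.23 (limma adjusted p = 0.0073). This call sat at the edge of the threshold. The change was -0.99 with both edgeR and DESeq2, with adjusted p of 0.0114 and 0.000201, and the call was lost with either and with 5 of 6 samples left out in turn. In 57SCLC the change was 0.53 ± 0.11 with an adjusted p of 0.00629 (limma), below the threshold of size.

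Abcc4 (ENSMUSG00000032849, chr14:118720103-118943924, minus strand) encodes an exporter of cyclic nucleotides, prostaglandins and nucleotide drugs. It had 1106, 1349.8 and 1316 normalized counts in the cultures of 46LCNEC and 1350.1, 1286 and 1241 in those of 57SCLC. Tumors 275, 316 and 317 had 1338, 1537 and 1156, and the lungs had 597, 574 and 606. In 46LCNEC_allo, tumor 319 had 221, whereas tumors 312 and 321 had 857 and 656. The cultures of both lines overlapped, and the interval of their log2 difference was -0.18 to 0.27. Abcc4 rose against Lung 2.12-fold in 46LCNEC_cell, 2.18-fold in 57SCLC_cell and 2.27-fold in 57SCLC_allo (limma adjusted p = 5.01e-06, 3.88e-06 and 3.86e-05). In 46LCNEC_allo the change against Lung was -0.25 ± 0.48, and 0.34 without tumor 319, neither called. Abcc4 was thus the transporter for which the cultures of the lines differed least.

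**Figure D3:**
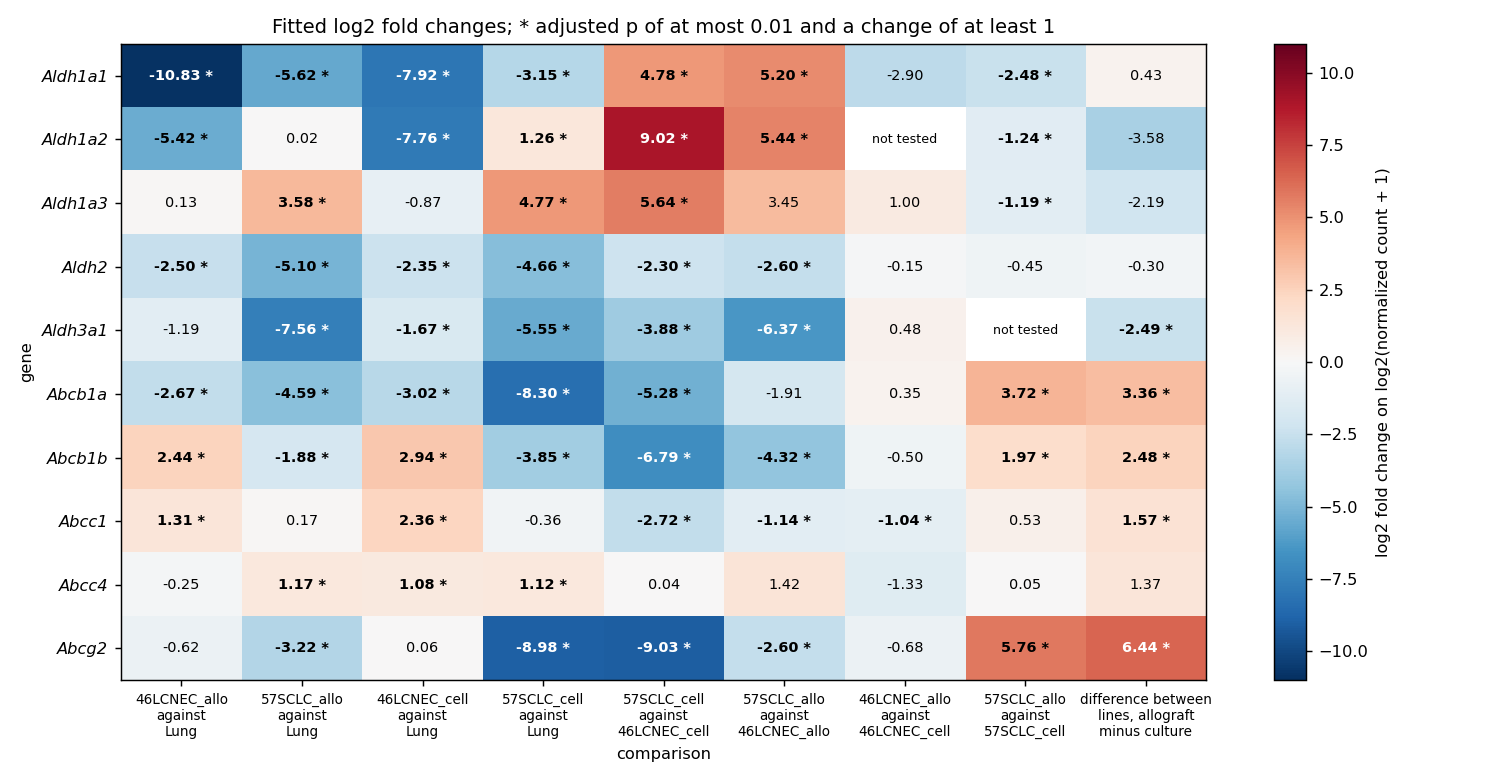
Fitted log2 fold change of each of the 10 genes (vertical axis) in the 8 comparisons and the contrast of the lines between allograft and culture (horizontal axis), with color for its size and an asterisk where it was called. Values against a group at 0, such as Abcg2 in 57SCLC_cell and Aldh1a2 in 46LCNEC_cell, depend on the pseudocount of 1. Between the cultures, the 3 ALDH1A genes are higher and 6 others lower in 57SCLC.

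The difference between the lines differed by growth setting for 4 of the 5 transporters. In culture, Abcb1a was 63.8-fold lower in 57SCLC, where 8 reads were counted in all. In the allografts its log2 difference was -1.91 ± 0.54 and was not called (limma adjusted p = 0.021), but it was called without tumor 319 (0.00313). The contrast between settings was 3.36 ± 0.62 on the log2 scale for Abcb1a, 2.48 ± 0.36 for Abcb1b and 1.57 ± 0.27 for Abcc1 (limma adjusted p = 0.00134, 0.00026 and 0.000892). For Abcg2 it was 6.44, a value that depends on the pseudocount as the cultures of 57SCLC were at 0, and it was called with an adjusted p of 8.84e-08 (limma). In these bulk samples the lines thus lay closer in the allografts than in culture for these 4 genes. The part of host cells in the allografts was not tested. Aldh3a1 went the other way, with a contrast of -2.49 ± 0.59 and an adjusted p of 0.00614 (limma), which edgeR and DESeq2 did not call at adjusted p of 0.0202 and 0.0133, and which was lost in 9 of the 12 fits that left out 1 sample. For Abcc4 and the 4 remaining aldehyde dehydrogenases the contrast was not called, with 1.37 ± 0.52 for Abcc4 and -3.58 ± 1.15 for Aldh1a2. That of Aldh1a2 depends on the pseudocount, as the cultures of 46LCNEC were at 0. It was called without tumor 312, at -2.29, and with DESeq2, at -7.17 (DESeq2 adjusted p = 0.00144). With a pseudocount of 0.1 it was called too, at -6.34 (limma adjusted p = 0.00507).

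Levels of different genes were compared per kb of the canonical transcript of GENCODE release M39, as a description with no test. Reads were not split over introns in the alignment, and a loss of such reads that differs between genes was not measured. The sum of the 5 aldehyde dehydrogenases was 4858 ± 203 (SD, n = 3) normalized counts per kb in Lung and 583 ± 32.5 in 46LCNEC_cell. It was 573 ± 127 in 46LCNEC_allo, 1005 ± 31.7 in 57SCLC_cell and 409.6 ± 14.4 in 57SCLC_allo. Aldh2 held 56.0% and Aldh1a1 39.7% of the sum in Lung. In 46LCNEC, Aldh2 alone held 91.3% in culture and 85.0% in the allografts. In 57SCLC, Aldh1a3 came first with 47.5% in culture and 50.2% in the allografts, and Aldh2 held 10.7% and 19.6%. Aldh2 thus came first in Lung and in both groups of 46LCNEC, and Aldh1a3 in both groups of 57SCLC.

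The sum of the 5 transporters was highest in 46LCNEC, with 1735 ± 137 normalized counts per kb in the cultures and 957 ± 290.1 in the allografts. Lung had 601 ± 23.4, and 57SCLC had 389 ± 17.7 in culture and 497 ± 20.1 in the allografts. In 46LCNEC, Abcc1 held 64.8% of it in culture and 59.1% in the allografts, and Abcb1b came next with 16.5% and 21.9%. In 57SCLC_cell, Abcc4 held 55.3% and Abcc1 44.0%, so that less than 1% was left for the other 3 genes. Lung was the most even, with 36.5% Abcc1, 25.3% Abcb1a, 16.4% Abcc4 and 15.6% Abcg2. With the length of all annotated exons in place of the canonical transcript, Abcb1a came before Abcc1 in Lung, Abcc4 before Abcc1 in 57SCLC_allo and Abcc4 before Abcb1b in 46LCNEC.

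**Figure D4:**
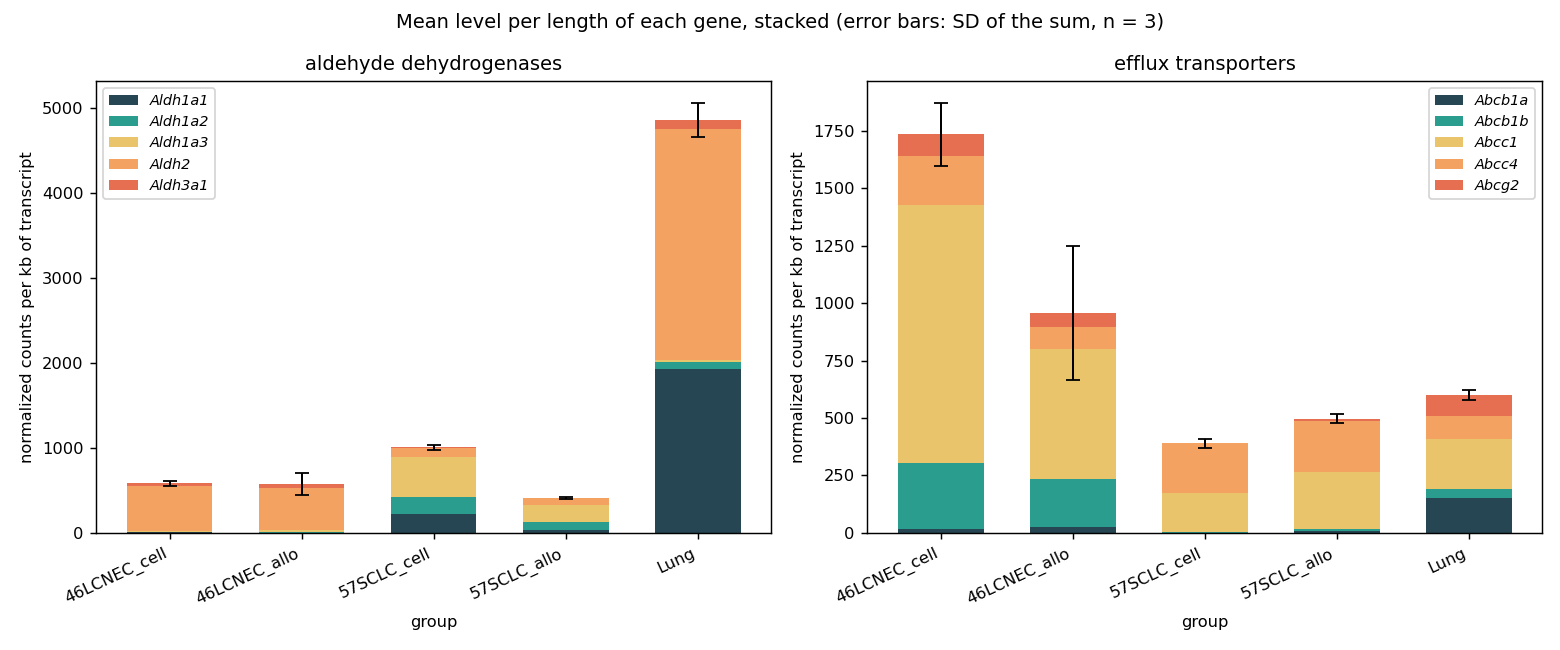
Mean normalized counts per kb of transcript (vertical axis, from 0) of the 5 aldehyde dehydrogenases and the 5 efflux transporters, stacked for each group of 3 samples, with the SD of the sum as error bar. Aldh2 and Aldh1a1 fill the column of Lung, Aldh1a3 is the largest part in 57SCLC, and Abcc1 is the largest part in 46LCNEC.

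Genes that supply, bind and break down retinoids were read beside the ALDH1A genes. Of 22 such genes, Lrat and Adh7 were listed at 0 in all samples and cannot be read. Between the cultures, 3 of 15 tested were higher in 57SCLC_cell and 6 lower, where 23.9% and 22.2% of all genes were. Of the 3, Rarb was not called without culture C, with a log2 fold change of 0.99 in place of 1.48. Stra6, the receptor that takes up retinol, was 23.1-fold higher, and Rarg, a retinoic acid receptor, was 119-fold lower, at 18.2 to 31.1 normalized counts against 2538 to 3444. Dhrs9, a retinol dehydrogenase, was at 0 in 57SCLC_cell and at least 171-fold lower. Rdh10, which makes the retinaldehyde used by the ALDH1A enzymes, had 323 to 360.0 in 57SCLC_cell and 1194 to 1529 in 46LCNEC_cell and was called lower. The line with the higher ALDH1A levels thus had lower levels of Rdh10, Dhrs9 and Rarg, and higher levels of Stra6 and Rbp4. The median log2 fold change of the list was 0.02, and that of all genes 0.00.

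In 46LCNEC, 6 of 18 retinoid genes tested rose from culture to allograft and 1 fell, against 14.4% and 8.45% of all genes. The median log2 fold change of the list was 1.07, where that of all genes was 0.00. Crabp2, which carries retinoic acid to the nucleus, had 75.1 to 92.3 normalized counts in culture and 3230, 3930 and 1178 in tumors 312, 319 and 321. Cyp26a1, which breaks down retinoic acid, had 0.938 to 6.92 in culture and 185, 653 and 150 in the tumors. Dhrs3 had 61.9 to 85.0 in culture and 1834, 891 and 1590 in the tumors. Cyp26b1 went down, from 841 to 1033 in culture to 84.8, 21.1 and 39.8. The fibroblast sum went from 78853 to 89793 in culture to 437726 to 894368 in these tumors and the macrophage sum from 331 to 384 to 11374 to 16262, and their part in these changes was not tested. Crabp1 had 2634 in tumor 321 and at most 51.7 in the other 5 samples of the line, and it was not called. Aldh1a1 and Aldh1a2 were under 30 in these tumors, and Aldh1a3 was at 317 in tumor 319 and under 40 in the other 2.

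In 57SCLC, 5 of 16 retinoid genes tested rose from culture to allograft and 2 fell, where 14.4% and 2.29% of all genes did. Rarg rose 14.2-fold. Cyp26b1 rose by 3.96 on the log2 scale, and by 4.88 without culture C. Rarb fell, with a log2 change of -1.74, and of -1.25 without culture C. Dhrs3 was not called, with 2.49, and was called without culture C, with 3.41. Dhrs9 was at least 29.4-fold higher in the allografts. Against Lung, 2 of 17 tested were higher and 10 lower in 57SCLC_cell, where 21.1% and 32.7% of all genes were, and 3 of 18 were higher and 9 lower in 57SCLC_allo, where 18.9% and 26.9% were. The median log2 change of the list was -1.82 and -1.49, and that of all genes -0.12 and -0.087.

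**Figure D5:**
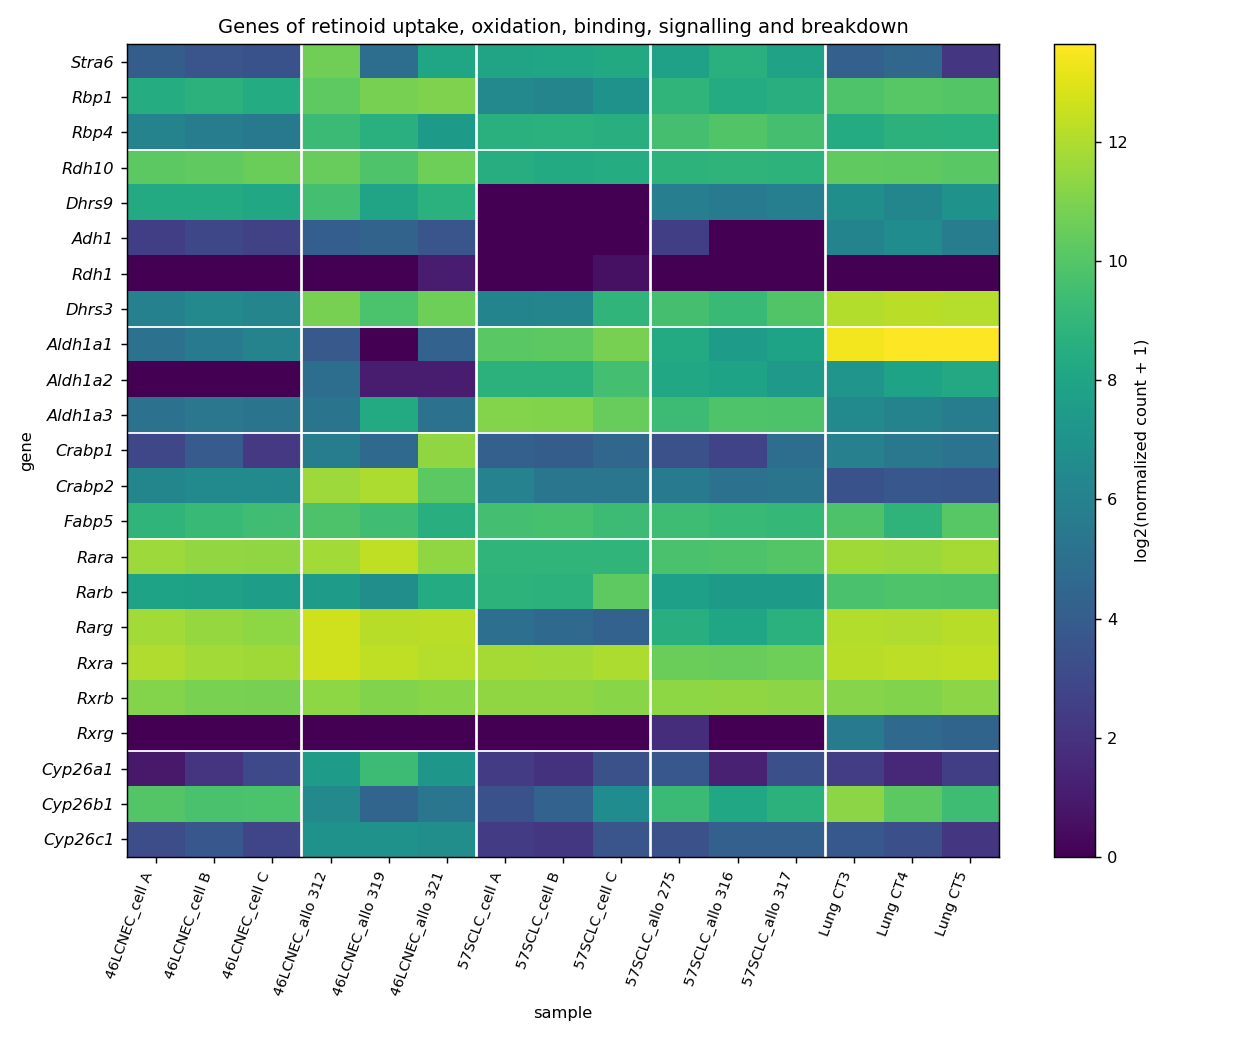
Level of 23 genes of the retinoid pathway in the 15 samples, as log2(normalized count + 1) by color, with genes on the vertical axis in the order uptake, oxidation and reduction, ALDH1A, binding, receptors and breakdown, and samples on the horizontal axis. Crabp2 is brightest in tumors 312, 319 and 321, and Rarg is dark in the 3 cultures of 57SCLC.

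Among 16 other aldehyde dehydrogenases, Aldh4a1 was listed at 0 in all samples. Aldh1l2, a mitochondrial enzyme of folate metabolism, and Aldh18a1, which makes the precursor of proline, were higher in both lines and both allografts than in Lung. Aldh1l2 had 31.6 to 49.3 normalized counts in Lung and 1155 to 4048 in the other samples. Aldh18a1 had 327 to 389 in Lung and 2554 to 4997 elsewhere. Between the lines, Aldh1b1, a mitochondrial relative of Aldh2, was 72.0-fold higher in 57SCLC_cell and 14.8-fold higher in 57SCLC_allo, and Aldh5a1, which degrades GABA, was 7.64-fold higher in 57SCLC_cell and was also called higher in 57SCLC_allo. Of 13 tested between the cultures, 5 were higher in 57SCLC and 2 lower, against 23.9% and 22.2% of all genes.

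Among 23 other transporters of subfamilies B, C and G, Abcb10 was listed at 0 in all samples, and 15 were tested between the cultures, of which 7 were higher in 57SCLC_cell and 3 lower, against 23.9% and 22.2% of all genes. Abcc8, the sulfonylurea receptor, was 15.9-fold higher, and Abcg1, a sterol exporter, 39.0-fold higher. The 5 efflux transporters described above had 4 lower and none higher. From culture to allograft, Abcc9, Abcg3, Abcc3 and the peptide transporters Tap1 and Tap2 rose in both lines. The leukocyte marker Ptprc was at most 5.63 in any culture and 504 to 2730.2 in the allografts, the endothelial, fibroblast and macrophage sums given above were also higher there than in culture, and their part in these changes was not tested. Abcg3, a close relative of Abcg2, had no read in the 6 cultures, 59.99 to 145 normalized counts in 46LCNEC_allo, 106 to 171 in 57SCLC_allo and 206 to 247 in Lung.

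Genes with the most similar pattern over the 15 samples, given here for 9 of the 10 genes, were sought among 16367 genes by the Pearson correlation of log2(normalized count + 1), as a description. These samples fall into 5 groups, so a high value mostly reflects the group means. Abcg2 was most like Wwc2 and Lhfp (r = 0.997 for both), Abcb1b was most like Dpysl3 and Phlda3 (0.993 and 0.991), and Abcb1a was most like Pltp (0.993). Aldh1a3 was most like Bmi1 (0.991), Aldh2 was most like Il6st (0.985), Abcc1 was most like Uhrf2 (0.981), and Aldh1a2 was most like Gne (0.980). Aldh1a1 was most like Bcam (0.978), and Aldh3a1 was most like Kctd10 (0.974).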

How the data were processed

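The authors aligned reads to GRCm39 with Rbowtie2, which does not split reads over introns, and used featureCounts with GENCODE M27 to count them over genes. The authors deposited, as signal values, these counts divided by DESeq2 size factors. Strand and multi-mapping settings were not given in the sources used here. Every non-zero value (100%, tolerance 0.001) was a whole multiple of 1 step, which gave the reads. The members and gene lists were chosen with earlier results of these data known. Comparisons used limma 3.58.1 (R 4.3.3) with a mean-variance trend on log2(normalized count + 1), the 6 samples compared (12 for the contrast of lines between settings) and only genes that reached 10 normalized counts in 3 or more samples. Fold changes in the text are ratios of group means, or bounds at 3 reads where given as at least, and log2 values are fitted. The pseudocount makes fitted values understate changes of low genes. Where the samples of a group were uneven, fitted values could exceed the ratio of means. For Aldh1a1 in 57SCLC_allo against 46LCNEC_allo, the fitted value was 5.20 and the ratio of means 23.1. edgeR 4.0.16 and DESeq2 1.42.0 on the recovered reads, pseudocounts of 0.1 and 5, no filter, scaling by total reads or TMM, all 15 samples, an adjusted p of 0.05, each sample left out and a block were alternatives. On simulated data for 46LCNEC_allo against Lung, limma recovered 200 of 200 changed genes among 18079, and 193 of 200 among 18002 for the contrast. The simulation used large changes and the same fixed dispersion for all genes. It checked that the fits ran as meant and did not measure power at the spread of the real tumors. Genes outside the 10 are named where called with the 4 largest changes of their list in a comparison, or for a known role. Gene models came from GENCODE M39, read with Python 3.11.15. Of the 10 genes, at most 8.99% of the annotated exon bases lay in exons of other genes.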

Additional observations from a re-analysis of the deposited data

Results flagged for a closer look

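The difference between 57SCLC and 46LCNEC was called as changed between allografts and culture for 5 genes, by a test of that contrast over 12 samples. On the log2 scale the contrast was 3.36 for Abcb1a, 2.48 for Abcb1b, 1.57 for Abcc1 and 6.44 for Abcg2, and -2.49 for Aldh3a1. For Abcc1 the log2 change from culture to allograft was -1.04 ± 0.23 (SE) in 46LCNEC, which was called, and 0.53 ± 0.11 in 57SCLC, below the threshold of size. For Abcb1a, Abcb1b and Abcg2 the rise within 57SCLC was called, whereas the changes within 46LCNEC were 0.35 ± 0.46, -0.50 ± 0.23 and -0.68 ± 0.15 and were not. The allografts hold host cells, and their part in these contrasts was not tested. For Aldh3a1 the 57SCLC allografts were at 0, so that the contrast depends on the pseudocount, and it was not called with a pseudocount of 5 (-1.16, limma adjusted p = 0.0565) or with no filter on low values (0.0141).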

How the results depend on the processing

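Of 1380 values of single genes under the alternatives, 1274 kept their direction and their side of the threshold, and the 18 that changed sign were of genes not called. With 1 sample left out, the log2 change of Aldh1a3 in 46LCNEC_allo ran from -0.91 (without tumor 319) to 0.67 against Lung and from -0.041 (without tumor 319) to 1.54 against culture, and that of Abcb1a against culture from -0.076 (without tumor 312) to 0.89. Abcc4 ran from -0.64 to 0.34 (without tumor 319) in 46LCNEC_allo against Lung, from -0.045 (without culture A) to 0.0983 between the cultures of the lines and from -0.054 to 0.15 between allograft and culture of 57SCLC, where it was -0.016 with TMM. Aldh1a2 in 57SCLC_allo against Lung ran from -0.29 to 0.26, was -0.15 and -0.0304 without tumors 275 and 316, and was -0.014 with edgeR and -0.012 with DESeq2. Abcg2 in 46LCNEC_cell against Lung ran from -0.00996 (without CT4) to 0.15. The contrast of Aldh1a1 between settings ran from -0.93 (without tumor 319) to 1.224, and was -0.24 with edgeR and with DESeq2 and -0.42 with a pseudocount of 5. The number of the 10 genes called between 46LCNEC_allo and 46LCNEC_cell was 1, and 0 with edgeR and with DESeq2, 3 with all 15 samples and 2 at an adjusted p of 0.05. That between 57SCLC_allo and 57SCLC_cell was 6, and 3 with all 15 samples. In 46LCNEC, 2365, 2674 and 2727 of all genes were called higher and 1296, 1466 and 1692 lower with edgeR, DESeq2 and all 15 samples. In 57SCLC, all 15 samples gave 2305 higher and 312 lower, against 2451 and 391. With 1 sample left out, on the same genes tested, the numbers for the 10 genes ran from 0 to 1 in 46LCNEC. They stayed at 5 in 57SCLC. Against Lung they ran from 3 to 6 for 46LCNEC_allo, 7 to 9 for 46LCNEC_cell, 8 to 9 for 57SCLC_cell and stayed at 8 for 57SCLC_allo. Between the lines they stayed at 9 in culture and ran from 4 to 7 in the allografts, and for the contrast from 4 to 5. The calls over all genes moved too. Without CT3, CT4 or CT5, 46LCNEC_allo against Lung had 2076, 2039 and 2043 higher and 3002, 2999 and 3059 lower, against 2425 and 3987. Without tumor 275, 316 or 317, 57SCLC_allo against 46LCNEC_allo had 2220, 2165 and 2161 higher and 2101, 1976 and 2023 lower, against 2821 and 2491. The letters A, B and C of the cultures did not pair them, with correlations of 0.0916, -0.0837 and -0.00619 between same letters, and with a replicate block 9 genes were called between the cultures, as without it. Scaling by total reads moved the median of all genes from 0.01 to 0.28 in 57SCLC_allo against 46LCNEC_allo, with 64.2% in place of 53.1% of calls higher, and from 0.00 to 0.23 between the cultures. Without culture A, B or C of 46LCNEC_cell, 1860, 1705 and 1657 genes were called higher in 46LCNEC_allo than in the cultures, against 2355. Those called lower were 994, 859 and 783, against 1383. The lowest depth, in tumor 275, put the floor at 7.18 normalized counts.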

Other observations

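Genes of the aryl hydrocarbon receptor and of other drug and metal transport were read beside the 10 genes. Cyp1b1, a cytochrome P450 that activates and clears polycyclic hydrocarbons and estrogens, had 55469, 51318 and 51703 normalized counts in cultures A, B and C of 46LCNEC_cell. In tumors 312, 319 and 321 of the same line it had 358, 16.8 and 369. In 57SCLC it went the other way, with 1.04 to 3.27 in culture and 386 to 852 in the allografts, and Lung had 354 to 495. Both changes were called, with a log2 fold change of -8.63 in 46LCNEC and 7.51 in 57SCLC (limma adjusted p = 0.000645 and 2.46e-06). Cyp1a1, another target of the receptor, had at most 7.73 in 46LCNEC and 18.2 to 41.0 in 57SCLC. Nqo1, a quinone reductase, had 1050.3 in tumor 312 and at most 19.9 in the other 5 samples of 46LCNEC. Of 9 genes of this list, Ugt1a6a was listed at 0 in all samples, and of 6 tested between the cultures 2 were higher in 57SCLC_cell and 3 lower, against 23.9% and 22.2% of all genes.

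Of 12 other drug and metal transport genes, 10 were tested between the cultures, of which 3 were higher in 57SCLC_cell and 3 lower, close to the shares of all genes, 23.9% and 22.2%. Slc29a1, the transporter that takes up nucleoside drugs such as gemcitabine and cytarabine, was 11.1-fold lower in 57SCLC_cell than in 46LCNEC_cell and fell 2.10-fold from culture to allograft in 46LCNEC. Mvp, which encodes the main protein of vault particles, was 11.1-fold lower in 57SCLC_cell than in 46LCNEC_cell and rose 3.72-fold from culture to allograft in 57SCLC. Atp7b, a copper pump, was 44.9-fold higher in 57SCLC_cell than in 46LCNEC_cell, where it had 4.41 to 7.51 normalized counts, and it was lower than in Lung in all 4 groups.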
